A study of Mus musculus with 22 samples.

Results

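The genes described here are homeobox genes of the rodent preimplantation embryo, Obox1, Obox2, Obox3, Obox5, Obox6, Cphx1, Cphx2, Cphx3 and Crxos. They were picked by their gene symbol, and all 9 were found among the 55335 genes of the deposited table. Homeobox genes encode transcription factors that bind DNA through a homeodomain. Obox genes were first known from the oocyte and early embryo, where they act in zygotic genome activation, the start of transcription from the embryo's own genome. Cphx genes encode a homeobox protein whose RNA is stored in the egg, and Crxos is a homeobox gene next to the retinal homeobox gene Crx.

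RNA-seq was done on mouse embryos of B6D2F1 parents, with or without knockdown (KD) of the histone variant H2A.Z. The aim was to follow what the loss of H2A.Z does to transcription at each stage. The KD embryos had been injected as pronuclear zygotes with about 10 pl of a mix of siRNAs against H2A.Z at 20 µM, and were collected as 2-cell embryos at 43 to 44 h, as morulae at 78 h or as blastocysts at 94 h after hCG, the hormone given to induce ovulation. The control embryos were collected at the same stages, and whether they were injected is not given for these libraries. The authors reported that fewer KD than control embryos formed blastocysts, while development to the morula was unaffected. KD and control blastocysts may thus not be like sets of embryos, which was not tested. Each of the 22 libraries pooled 15 embryos, and there were 4 control libraries per stage, against 3 KD libraries of 2-cell embryos, 3 of morulae and 4 of blastocysts. Since a library pools whole embryos, fewer cells that express a gene and less RNA per cell cannot be told apart. The labels do not say whether libraries of a group came from separate collections, so p-values measure only the spread between these libraries.

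Levels are FPKM, fragments counted per length of a gene and scaled to the mapped reads of a library. Since the table holds no counts, the depth is unknown. H2afz (ENSMUSG00000037894.13), which encodes H2A.Z and is the target of the KD, had 1244, 1236, 905 and 1178 FPKM in control 2-cell embryos (replicates 1, 2, 4 and 5) and 415, 139 and 112 FPKM in KD 2-cell embryos (replicates 1, 2 and 4). In KD morulae it was at 25.7 to 30.3 FPKM against 1158 to 1511 FPKM in controls, and in KD blastocysts at 53.2 to 67.2 FPKM against 1945 to 2656 FPKM. The KD libraries lay below all control libraries at every stage, and KD 2-cell replicate 1 kept the most. The log2 fold changes were -2.53, -5.41 and -5.19 at the 3 stages, with limma adjusted p of 0.544, 9.72e-08 and 3.63e-08, so that in 2-cell embryos the target did not pass the test within the stage. It passed in the fit over all 22 libraries, at -2.49 (adjusted p = 0.000348), and without KD replicate 1, at -3.12.

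Position split the genes into 2 clusters. On chromosome 7 of GRCm38, Obox2 (ENSMUSG00000074369.12, 15388721 to 15398545), Obox1 (ENSMUSG00000054310.16, 15388948 to 15556866), Obox5 (ENSMUSG00000074366.9, 15750131 to 15759800) and Crxos (ENSMUSG00000074365.13, 15882617 to 15904020) lie on the plus strand, and Obox3 (ENSMUSG00000066772.12, 15479825 to 15639902) and Obox6 (ENSMUSG00000041583.8, 15833241 to 15839678) on the minus strand. On chromosome 14, Cphx1 (ENSMUSG00000095975.3, 25938304 to 25956356), Cphx2 (ENSMUSG00000098463.1, 26081516 to 26096127) and Cphx3 (ENSMUSG00000094817.8, 26082297 to 26235744) are all on the plus strand. All are annotated as protein coding. The annotated span of Obox1 overlaps those of Obox2 and Obox3, and that of Cphx2 overlaps that of Cphx3. The pseudogene Obox3-ps6 lies within the span of Obox3 on the same strand.

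Some of these genes share so much sequence that reads cannot be assigned with certainty. Of the 100-base words in transcripts of Cphx1, Cphx2 and Cphx3, 78.6%, 88.4% and 99.8% also occur in transcripts of another gene, in each case another Cphx gene. The share was 42.3% for Obox1 and 47.2% for Obox2, all of it between that pair. It was 8.89% for Obox3, mainly with the pseudogene Obox3-ps3, 5.05% for Crxos, 1.75% for Obox5 and 0% for Obox6. Single values of the Cphx genes and of Obox1 and Obox2 are therefore uncertain, and those of Obox6 are the least affected by shared words. Values of Obox3 are uncertain too, since its span holds Obox3-ps6. In control 2-cell embryos the 2 were nearly alike, at 118 to 178 FPKM for Obox3 and 120 to 175 FPKM for Obox3-ps6.

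The first comparison follows normal development. Obox1, Obox2, Obox3 and Obox5 were 2-cell genes in these libraries. In control 2-cell embryos Obox1 had 71.4, 43.7, 53.6 and 46.4 FPKM and Obox2 had 32.2, 29.8, 28.0 and 26.2 FPKM. Obox3 had 178, 168, 118 and 133 FPKM and Obox5 had 253, 209, 191 and 143 FPKM. In control morulae and blastocysts none of these 4 genes reached 1 FPKM in any library, the highest value being 0.418 FPKM, of Obox5 in control morula replicate 8.

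Obox6 kept its level for longer. It had 576, 607, 507 and 575 FPKM in control 2-cell embryos, then 481, 545, 541 and 515 FPKM in control morulae. In control blastocysts it had 4.86, 7.90, 8.07 and 12.6 FPKM. The 2-cell and morula values overlapped, and all blastocyst values lay far below both. Cphx1 and Cphx2 were lower at each later stage, Cphx1 going from 54.2 ± 6.86 FPKM (SD, n = 4) in 2-cell embryos to 20.1 ± 2.18 FPKM (SD, n = 4) in morulae and 2.43 ± 0.709 FPKM (SD, n = 4) in blastocysts. Crxos went the other way, with 512, 432, 395 and 442 FPKM in control 2-cell embryos, 2292, 2643, 4373 and 2939 FPKM in control morulae and 5501, 3929, 2873 and 3513 FPKM in control blastocysts. Per length it was the most abundant of the 9 genes in both later stages. Over all 6 groups Obox6 was highest in KD morulae, then in the groups of 2-cell embryos and control morulae, which overlapped one after the other, then in KD blastocysts and last in control blastocysts. For Crxos the 4 groups of morulae and blastocysts overlapped one after the other, all above the 2-cell embryos.

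The stages were compared with limma in 1 fit over all 22 libraries, on log2(scaled FPKM + 1), a scale that understates the change of low genes. A gene was called differentially expressed (DEG) at an adjusted p under 0.05 if its log2 fold change was also above 1 or below -1. From control 2-cell embryos to control morulae, 6 of the 9 genes fell, where 29.5% of all 15697 genes tested did, and 1 rose, where 25.8% did. Of the 6, Obox1, Obox2, Obox3 and Obox5 had the minimum of 1 FPKM, needed for the test, in 2-cell libraries only, so that they could only fall and their calls are no support. Cphx1 and Cphx2 share most of their sequence and are not separate cases. The genes that fell were Obox1 (log2 fold change -5.83), Obox2 (-4.95), Obox3 (-7.15), Obox5 (-7.52), Cphx1 (-1.56) and Cphx2 (-1.44), and Crxos rose by 2.55 (standard error 0.27, limma adjusted p = 9.68e-09). Obox6 (log2 fold change -0.31) and Cphx3 (-0.61) were not DEGs, while the 3 Cphx genes summed, an alternative chosen after the values were seen, fell by 1.34. The Cphx3 values in control 2-cell embryos spread widely, at 44.3, 18.5, 51.9 and 10.5 FPKM, and the log2 fold change ranged from -1.05 without replicate 5, where it passed both thresholds, to -0.34 without replicate 1 or 4. With FPKM as deposited the balance of all genes turned, from 4046 up and 4630 down to 4438 up and 4232 down.

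From control morulae to control blastocysts, Obox6 (log2 fold change -5.84, standard error 0.17, limma adjusted p = 6.82e-17), Cphx1 (-2.62), Cphx2 (-2.47) and Cphx3 (-2.51) fell, 4 of 9 genes where 8.35% of all genes tested did. None of the 9 rose, where 11.1% did. Obox1, Obox2, Obox3 and Obox5 were under 1 FPKM in all of these libraries and could hardly be called either way. Both counts therefore describe only the other genes, and among them the Cphx genes share most of their sequence and are not separate cases. Crxos had a log2 fold change of 0.39 (standard error 0.27, limma adjusted p = 0.259), and its morula and blastocyst libraries overlapped. That fold change ran from 0.1499 to 0.5897 with single libraries left out.

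**Figure D1:**
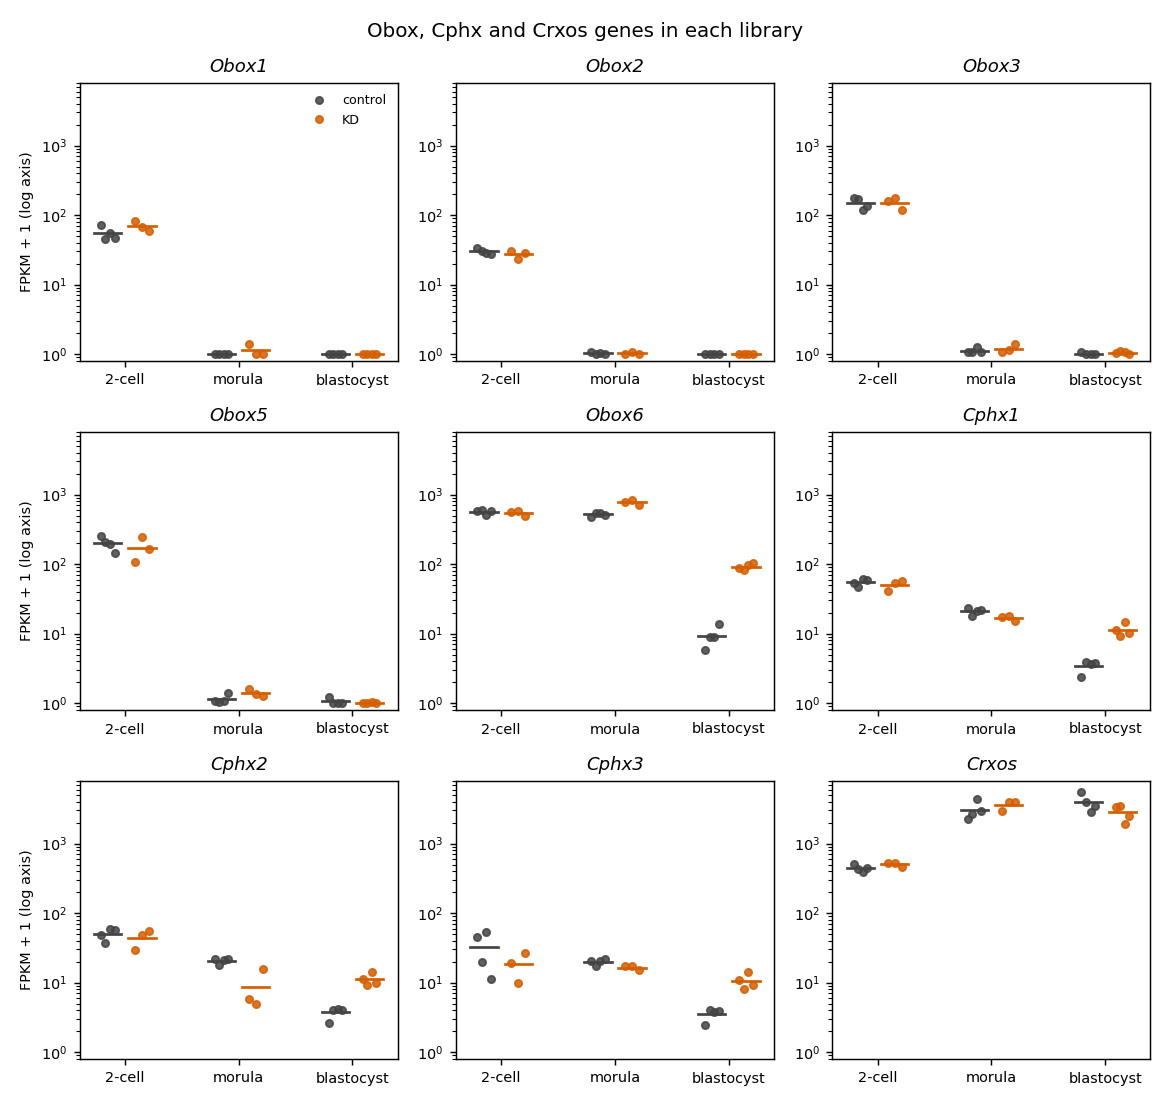
FPKM + 1 of the 9 genes in each library (log axis) by stage, with control libraries in grey, KD libraries in orange and lines at the group means. Obox1, Obox2, Obox3 and Obox5 are near 0 FPKM after the 2-cell stage, and the KD blastocysts lie above the control blastocysts for Obox6 and the Cphx genes.

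The KD was then compared with control within each stage, after scaling and filtering the libraries of that stage. At the 2-cell stage all 9 genes had at least 1 FPKM in at least 3 libraries. None was a DEG, and the background was 0% of 12160 genes tested (limma). At an unadjusted p under 0.05 there were 0 of the 9 genes and 701 of all genes. The log2 fold changes ran from -0.59 for Cphx3 to 0.41 for Obox1, with Crxos at 0.25, Obox3 at 0.07, Obox6 at 0.01, Obox2 at -0.07, Cphx1 at -0.07, Cphx2 at -0.14 and Obox5 at -0.21, and the sign of several depended on which library was left out. The value of Cphx3 then ran from -1.009 to -0.1637 and that of Crxos from 0.1621 to 0.339, with no change of sign. Obox6 had 563, 579 and 488 FPKM in KD 2-cell embryos and Crxos had 518, 529 and 465 FPKM. KD and control libraries overlapped for each of the 9 genes.

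In morulae 5 of the 9 genes passed the minimum, Obox6, Crxos and the 3 Cphx genes. Obox6 had 786, 823 and 699 FPKM in KD morulae (replicates 1, 2 and 6). Every KD library was above every control library, also after scaling, as for 12.2% of all genes tested. The log2 fold change was 0.69 (standard error 0.14, limma adjusted p = 0.0132), which is short of the fold threshold; the adjusted p was also above 0.05 with no filter on low FPKM and without KD replicate 1 or 2, at up to 0.067 for the latter. Crxos had 2933, 3990 and 3976 FPKM in KD morulae, which overlapped the controls (log2 fold change 0.40, standard error 0.25, limma adjusted p = 0.304). Its log2 fold change ran from 0.2135 to 0.6005 with single libraries left out.

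Of the 5 genes tested in morulae, 1 was a DEG, Cphx2, which was lower, as were 2.59% of all 10989 genes tested; none was a DEG with a higher value, where 1.00% were. With FPKM as deposited the counts of all genes were 424 lower and 71 higher, in place of 285 and 110. They were 135 lower and 36 higher with no filter, 585 and 205 with a pseudocount of 0.1, and 301 and 220 with the replicate block. Cphx2 had 21.0, 16.8, 20.0 and 21.2 FPKM in control morulae and 4.73, 3.93 and 14.6 FPKM in KD replicates 1, 2 and 6. The low values were those of KD replicates 1 and 2, while replicate 6 lay close under the controls. The log2 fold change was -1.33 (standard error 0.35, limma adjusted p = 0.0333), and the call was lost with no filter on low FPKM. It was also lost when any one of control replicates 1, 2, 7 and 8 and KD replicates 1 and 2 was left out, at an adjusted p of up to 0.138, and it held without KD replicate 6, at -1.88.

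The other Cphx genes did not follow Cphx2 in those libraries. Cphx1 had 16.5, 17.0 and 14.4 FPKM in KD morulae against 22.2, 17.1, 20.2 and 21.1 FPKM in controls, and Cphx3 had 16.1, 16.2 and 14.2 FPKM against 19.6, 16.6, 19.3 and 21.0 FPKM. For both, the KD libraries lay just below the controls as deposited, as for 22.9% of all genes tested, and overlapped them after scaling (log2 fold changes -0.19 and -0.17, standard error 0.15 each, limma adjusted p = 0.396 and 0.486). With the 3 genes summed, the morula log2 fold change was -0.45 (standard error 0.15, limma adjusted p = 0.0768), so the call of Cphx2 was lost. How reads were shared out between these near-identical genes was not tested.

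In blastocysts the same 5 genes passed the minimum. Obox6 had 86.3, 81.0, 95.2 and 101 FPKM in KD blastocysts (replicates 1, 4, 5 and 6). Every KD library was above every control library, also after scaling, as for 16.1% of all genes tested, and all were below the control morulae. The log2 fold change was 3.36 (standard error 0.21, limma adjusted p = 9.69e-07).

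Cphx1 had 1.38, 2.92, 2.64 and 2.78 FPKM in control blastocysts and 10.3, 8.16, 13.5 and 9.36 FPKM in KD blastocysts. Cphx2 had 1.62, 3.07, 3.20 and 3.05 FPKM in controls and 10.3, 8.28, 13.1 and 8.82 FPKM in KD. Cphx3 had 1.46, 2.98, 2.74 and 2.87 FPKM in controls and 9.85, 7.17, 13.2 and 8.35 FPKM in KD. For each of them the KD libraries lay above all controls, also after scaling, as for 16.1% of all genes tested. As deposited, replicate 5 was the highest KD library and replicate 1 the lowest control. The log2 fold changes were 1.74 for Cphx1, 1.59 for Cphx2 and 1.60 for Cphx3, with standard errors of 0.19, 0.19 and 0.20 and limma adjusted p of 5.18e-05, 7.98e-05 and 0.000114. Summed, the 3 genes had a log2 fold change of 1.87 (standard error 0.20, limma adjusted p = 4.48e-05).

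In blastocysts 4 of these 5 genes were DEGs with a higher value, where 6.10% of all 11828 genes tested were, and none with a lower value, where 7.76% were. Of the 4, Cphx1, Cphx2 and Cphx3 share most of their sequence and are not separate cases in this count. Each of the 4 had at least 1 FPKM in at least 3 control blastocyst libraries, so that they met the minimum without the KD libraries; of all 722 genes called higher, 234 did not. The remaining gene, Crxos, had 3337, 3475, 1889 and 2532 FPKM in KD blastocysts. These overlapped the controls (log2 fold change -0.49, standard error 0.29, limma adjusted p = 0.217). The log2 fold change of Crxos ran from -0.6661 to -0.2543 with single libraries left out. Obox1, Obox2, Obox3 and Obox5 stayed below 1 FPKM in every KD morula and KD blastocyst, the highest value being 0.612 FPKM, of Obox5 in KD morula replicate 1.

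**Figure D2:**
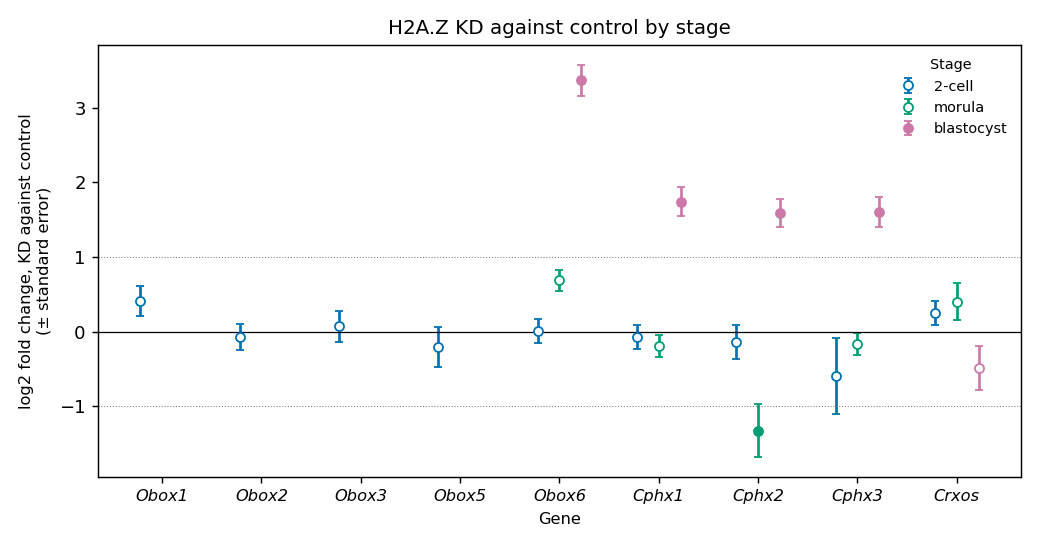
Log2 fold change of KD against control per gene and stage, with standard errors; filled points are DEGs and dotted lines mark 1 and -1. Obox1, Obox2, Obox3 and Obox5 have points at the 2-cell stage only, because they did not pass the minimum later; the filled points are Cphx2 in morulae (-1.33) and Obox6 (3.36), Cphx1 (1.74), Cphx2 (1.59) and Cphx3 (1.60) in blastocysts.

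Whether the KD effect differed between stages was tested as a difference of log2 fold changes in the fit over 22 libraries. Between morulae and 2-cell embryos 0 of the 9 genes were DEGs of this kind, with 1.04% of all 15697 genes in either direction (limma, 39 higher and 125 lower), and 2 of the 9 had an unadjusted p under 0.05 beside 2280 of all genes. With the replicate block 0 of all genes were called. The counts fell to 29 higher and 57 lower without KD morula replicate 1, 26 and 59 without replicate 2, 29 and 70 without KD 2-cell replicate 1, 27 and 67 without control morula replicate 7, 33 and 61 without replicate 8, and 26 and 76 with no filter. Other alternatives gave 67 higher and 148 lower without KD blastocyst replicate 5, and 59 and 176 without control morula replicate 1. Upper quartile scaling gave 67 and 121, and FPKM as deposited gave 41 and 196. Without KD morula replicate 6, 1 of the 9 genes passed, Cphx2. Between blastocysts and morulae 4 of the 9 passed with a higher value in blastocysts, where 2.59% of all genes did, and none with a lower value, where 3.37% did. Obox1, Obox2, Obox3 and Obox5 were under 1 FPKM at both of these stages and could hardly pass either way. The Cphx genes share most of their sequence and are not separate cases in this count. With FPKM as deposited, 585 of all genes were higher and 435 lower, in place of 406 and 529. The differences were 2.61 for Obox6 (standard error 0.24, limma adjusted p = 1.47e-06), 2.85 for Cphx2, 1.86 for Cphx1 and 1.70 for Cphx3 (adjusted p = 0.0409). The last call was lost with no filter (limma adjusted p = 0.136). It was also lost without any one of the 7 morula libraries or of the blastocyst libraries other than KD replicate 4, at an adjusted p of up to 0.089. The difference of Cphx2 includes its low values in KD morula replicates 1 and 2. Summed, an alternative chosen after the values were seen, the Cphx genes had a difference of 2.25 (limma adjusted p = 1.2e-05). Crxos had -0.95 (standard error 0.39, limma adjusted p = 0.141) and was called with the replicate block, at -1.20. These comparisons share the same morula libraries with the morula values above.

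Markers of cell types and stages were read in the same libraries. The 7 trophectoderm markers, of which 6 were tested and 2 were lower DEGs in KD blastocysts (7.76% of all genes), 1 of which, Elf5, did not meet the minimum in KD libraries alone, summed to 983 to 1471 FPKM in control blastocysts and 571 to 766 FPKM in KD blastocysts, with Krt18 the most abundant and no gene at 0 in every library. The 9 markers of the 2-cell stage, of which 4 were tested and 2 were higher DEGs (6.10% of all genes), neither of which met the minimum in control libraries alone, summed to 2.64 to 4.91 FPKM in control and 8.89 to 34.1 FPKM in KD blastocysts, where Tcstv3 was the most abundant. The KD blastocysts thus had lower trophectoderm and higher 2-cell marker sums than all controls, as they did higher Obox6 and Cphx values; their part in the result was not tested. The 10 markers of oocyte and maternal RNA summed to 2.23 to 3.51 FPKM in control and 2.56 to 6.41 FPKM in KD blastocysts, with overlap. Markers of cumulus or granulosa cells summed to at most 0.369 FPKM in any morula or blastocyst library, with Fshr and Ptx3 at 0 throughout, and sperm markers to at most 1.33 FPKM.

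Of the 6 inner cell mass markers 4 were tested in morulae and 1 was a lower DEG, Nanog, where 2.59% of all genes were, with a median log2 fold change of -0.0936 against 0.0153 over all genes tested. Nanog was the most abundant, at a mean of 106 FPKM in control and 20.7 FPKM in KD morulae. They summed to 127 to 169 FPKM in control and 42.2 to 58.2 FPKM in KD morulae, without overlap, and to 113 to 222 FPKM in control and 138 to 277 FPKM in KD blastocysts. The 5 primitive endoderm markers overlapped at both stages, at 9.01 to 28.0 FPKM in control and 9.45 to 10.5 FPKM in KD morulae, and at 10.3 to 20.5 FPKM in control and 10.2 to 37.4 FPKM in KD blastocysts.

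Of the relatives of these genes, 55 others with family symbols were in the table and 16 had at least 1 FPKM in at least 3 libraries of a stage. All 16 were tested at the 2-cell stage and 0 were DEGs. In morulae 6 were tested and 1 was a DEG, Obox8, and in blastocysts 4 were tested and 3 were DEGs, all with higher values, where 1.00% and 6.10% of all genes tested were. The 4 tested in blastocysts were under 1 FPKM in each control library and were tested through the KD libraries alone, so that they could only be called higher and the count is no support. Obox6-ps1 was short of the fold threshold in morulae, at 0.93 (limma adjusted p = 0.0258), and was a DEG with a pseudocount of 0.1 (1.30), with the replicate block (1.30) and without control replicate 7 (1.11) or KD replicate 6 (1.13). With other single libraries left out, its log2 fold change was as low as 0.8185 and its limma adjusted p as high as 0.109. Most of the others are Obox pseudogenes that were near 0 FPKM after the 2-cell stage, such as Obox3-ps5 at 192 to 284 FPKM in control 2-cell embryos and at most 0.941 FPKM in control morulae.

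Obox8 had 3.31, 4.06, 4.84 and 2.66 FPKM in control morulae and 16.6, 22.3 and 4.75 FPKM in KD replicates 1, 2 and 6. KD replicates 1 and 2 stood apart, and replicate 6 overlapped the controls as deposited and lay above them after scaling. The log2 fold change was 1.62 (standard error 0.39, limma adjusted p = 0.0244), lost without KD replicate 1 or 2 or control replicate 8, at an adjusted p of up to 0.0964, and with no filter. In control blastocysts it was listed at 0 in 3 libraries and at 0.0419 FPKM in replicate 6, against 10.9, 8.47, 4.29 and 8.13 FPKM in KD (log2 fold change 3.10, standard error 0.25, limma adjusted p = 7.18e-06).

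Duxbl1, Duxbl2 and Duxbl3, double homeobox genes on chromosome 14, are interspersed with or next to the Cphx genes. Duxbl2 had 0.616, 0.920, 0.676 and 0.591 FPKM in control and 1.96, 3.31, 2.64 and 2.11 FPKM in KD blastocysts. The KD libraries lay above the controls, also for Duxbl1 and Duxbl3 and also after scaling, as for 16.1% of all genes tested. In blastocysts the log2 fold change was 1.04 for Duxbl2 and 1.01 for Duxbl1 (standard error 0.17 each, limma adjusted p = 0.000674 and 0.000747), and 0.99 for Duxbl3, which fell short of the fold threshold. Values this close to the threshold moved across it: Duxbl2 was not a DEG without control replicate 6 or KD replicate 4 and Duxbl1 not without these or control replicate 5, at 0.889 or more, and neither was one in the fit over 22 libraries, at 0.987 and 0.960. Duxbl3 was a DEG without control replicate 4 or KD replicate 1 or 6, at up to 1.05, with upper quartile scaling, at 1.02, and with a pseudocount of 0.1, at 1.68. Summed, an alternative chosen after the values were seen, the 3 genes had 1.43 (standard error 0.19, limma adjusted p = 0.000196). In morulae the KD libraries of each Duxbl gene also lay above all controls, also after scaling, as for 12.2% of all genes tested, with log2 fold changes of 0.81, 0.81 and 0.73 for Duxbl1, Duxbl2 and Duxbl3, under the fold threshold (limma adjusted p = 0.0216, 0.0228 and 0.035), and 0.87 summed. With single libraries left out, the limma adjusted p of Duxbl1, Duxbl2 and Duxbl3 in morulae was up to 0.0904, 0.0908 and 0.131.

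Between the outermost Cphx genes (25938304 to 26235744) lie 11 other annotated genes, of which 6 were tested in blastocysts and 2, Duxbl1 and Duxbl2, were higher DEGs, where 6.10% of all genes tested were, both of which could only be called higher, as above. The other 4 tested there, Gm9780, Tmem254c, Plac9b and Tmem254b, were not DEGs. Between the outermost genes of the chromosome 7 cluster (15388721 to 15904020) lie 20 others, of which 3 were tested at the 2-cell stage and 0 at the later stages. Crx, beside Crxos, did not pass the minimum at any stage.

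Other early homeobox genes were read from a list of 40. In morulae 14 were tested, with 1 DEG up and 1 down, where 1.00% and 2.59% of all genes were, and a median log2 fold change of -0.102 against 0.0153 over all genes tested. Nkx2-9 rose (1.93, standard error 0.21, limma adjusted p = 0.00106) and Nanog, a pluripotency factor, fell (-2.23, standard error 0.37, limma adjusted p = 0.00645), a call lost with no filter on low FPKM. In blastocysts 15 were tested with a median of 0.0455 against 0.00466, and the 1 DEG was Nkx2-9, which rose by 2.90 (standard error 0.21, limma adjusted p = 2.89e-06), where 6.10% of all genes rose. At both stages Nkx2-9 met the minimum only with the KD libraries, where it is high, so its calls are no support. At the 2-cell stage 16 were tested and 0 were DEGs.

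Of 22 regulators of zygotic genome activation, 21 were tested at each stage. There were 0 DEGs in 2-cell embryos and morulae and 1 in blastocysts, Klf17, a zinc finger factor, which rose by 1.17 (standard error 0.21, limma adjusted p = 0.00106); 6.10% of all genes rose, so 1 of 21 is near the background. The medians were 0.0188, 0.153 and 0.303 at the 3 stages, against 0.00358, 0.0153 and 0.00466 over all genes tested. Of 19 genes that mark the 2-cell stage, 19, 9 and 7 were tested and 0, 0 and 4 were DEGs, all higher in KD, with medians of 0.0114, 0.437 and 1.57; of all genes 0%, 1.00% and 6.10% were higher. The 4, Tcstv3, Tdpoz5, Usp17lb and Zfp352, each had 1 FPKM in fewer than 3 control blastocyst libraries and were let into the test by the KD libraries, so their count and the median are no support. The largest rise was that of Tdpoz5, with 1.02, 0.441, 1.11 and 0.512 FPKM in control and 2.40, 13.5, 2.39 and 15.4 FPKM in KD blastocysts (log2 fold change 2.06, standard error 0.49, limma adjusted p = 0.00612), also lost with no filter. KD replicates 4 and 6 were the high ones, unlike for Obox6, whose 4 KD values lay close together.

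Genes whose pattern over the 22 libraries was most like that of a member are given as a description, by Pearson's r of log2(scaled FPKM + 1) over 15672 genes outside the families, or 15567 where only morula and blastocyst libraries were used. The libraries differ mostly by stage, which sets much of each r. Obox6 was most like Tfrc, the transferrin receptor (r = 0.994), and Gm15753 (0.988), and over the 15 morula and blastocyst libraries most like Gm11517 (0.994) and Tfrc (0.993). Cphx1 was most like Nek2 (0.986) and Rab39 (0.983), and over the later libraries Impdh2 (0.987) and Prpf18 (0.987), which also led for Cphx3 (0.988 and 0.985). Cphx2 was most like Taf1a (0.966) and Ncmap (0.958), and over the later libraries Dnaja2 (0.923) and Ddx55 (0.912). Crxos was most like Olfr1270 (0.990) and Ccdc58 (0.986), and over the later libraries Olfr1270 (0.949) and mt-Atp8 (0.939). Cphx3 was most like Gm19583 (0.939) and Eda (0.910) over all libraries.

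The Obox genes of the 2-cell stage had r above 0.99 with several genes. The highest were C87499 (0.999) and Adm2 (0.999) for Obox1, Tcl1b5 (1.000) and Gm49292 (1.000) for Obox2, AU016765 (0.999) and Gm11756 (0.999) for Obox3, and Gm1965 (0.998) and Rgs17 (0.998) for Obox5.

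Promoter sequences were taken from RefSeq on GRCm38.p6, where 8 of the 9 genes matched, with 10 entries because Crxos has 3. There was no entry for Obox6. In the 250 bases before the start, the members held 0 to 3 CpG, where the median of 32851 promoters was 6. 4 motifs were searched on both strands. TATAAA, the core of a TATA box, is held by 12.4% of all promoters and was in Cphx1, Cphx2, Cphx3 and Obox3. The homeodomain core TAATCC is held by 6.25% and was in Obox3. The box CCAAT is held by 33.8% and was in the 3 Cphx genes, Obox2 and Obox3. The GC box GGGCGG is held by 32.7% and was in 1 Crxos entry. A match is a description of the letters, not a site.

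The upstream parts of the Cphx genes, which moved together in blastocysts, are shown because they are near copies. Cphx2 and Cphx3 were the same over all 250 bases, and Cphx1 shared 246 of 246 aligned bases with each, its window being shifted against theirs. Capitals mark TATAAA. They lie on the plus strand of GRCm38.p6 at chr14:25942294-25942543 for Cphx1, chr14:26082043-26082292 for Cphx2 and chr14:26221654-26221903 for Cphx3, the last the same letters as Cphx2 and not printed again.
Cphx1: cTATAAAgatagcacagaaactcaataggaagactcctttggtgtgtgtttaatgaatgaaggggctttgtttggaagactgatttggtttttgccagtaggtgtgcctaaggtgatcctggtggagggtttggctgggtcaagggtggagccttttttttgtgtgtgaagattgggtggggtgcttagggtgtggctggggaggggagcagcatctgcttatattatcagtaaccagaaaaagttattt
Cphx2: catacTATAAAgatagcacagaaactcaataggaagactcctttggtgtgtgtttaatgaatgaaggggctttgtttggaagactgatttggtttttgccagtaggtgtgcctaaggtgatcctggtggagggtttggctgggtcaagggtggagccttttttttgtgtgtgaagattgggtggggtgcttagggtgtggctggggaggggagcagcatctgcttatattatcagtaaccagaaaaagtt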

How the data were processed

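The authors aligned reads to mm10 with STAR, estimated genes with StringTie 2.1.4 and deposited FPKM. Groups and replicate numbers were read from the sample titles. Of 55335 genes, 54587 matched the GRCm38 annotation by identifier and version.

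Each library was scaled by a median-of-ratios factor, computed within a stage for KD against control and over 22 libraries for stage contrasts and differences of the KD effect. These factors were then divided by their geometric mean. That centring was adopted after the results with uncentred factors had been seen, and the uncentred version is given as an added alternative; no call of the 9 genes differed between the versions. Genes with at least 1 FPKM in at least 3 libraries were tested on log2(FPKM + 1) with limma 3.58.1 (lmFit, then eBayes with trend) in R 4.3.3, with Benjamini-Hochberg adjustment over all genes tested. The fits within a stage and the difference of the KD effect between blastocysts and morulae were tested on simulated data. Scaling and the filter were left out of that test. Tables, sequences and figures were made with Python 3.11.15, pandas 2.3.3, numpy 2.4.6, matplotlib 3.10.9 and Biopython 1.88.

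The members and lists were chosen with earlier results of these data known. Named genes are the 9 members, H2afz, relatives past the minimum at any stage, the largest rise and fall among DEGs of each list and stage, and the genes most like each member. Neighbours and markers named beyond these were chosen after their values were seen.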

Additional observations from a re-analysis of the deposited data

Results flagged for a closer look

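The KD effect differed between blastocysts and morulae by the test of the difference for Obox6 (2.61 on the log2 scale), Cphx1 (1.86), Cphx2 (2.85) and Cphx3 (1.70). The value of Cphx2 includes its morula fall, a call that was lost with the Cphx genes summed. For the sum the difference was 2.25. The call of Cphx3 was lost with no filter on low FPKM and without any one of 14 of the 15 morula and blastocyst libraries. Control blastocyst replicate 1 stood far below the other 3 control libraries for Cphx2 (1.62 FPKM) and Cphx3 (1.46 FPKM), genes that share most of their sequence. Cphx1 was also lowest there, at 1.38 FPKM against 2.64 to 2.92 FPKM. Among 28 groups of 4 libraries looked at, 2 had such a distant library, where chance gives about 1 in 20, and these 2 are not separate cases.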

How the results depend on the processing

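Alternatives were a pseudocount of 0.1, no filter on low FPKM, FPKM as deposited, upper quartile scaling, each library left out, the replicate block, the range of replicate numbers as a covariate and 1 fit over all 22 libraries. Uncentred factors and summed Cphx or Duxbl genes were chosen after seeing the data. The 4 blastocyst calls held under each alternative other than the sums, which were fitted for the summed genes alone; the Cphx sum was also called higher there. The 1 call in morulae became 0 with no filter and ranged from 0 to 1 with single libraries left out, and the count of members whose KD effect differed in morulae from that in 2-cell embryos also ranged from 0 to 1; the cause was not tested.

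Signs turned only among values that were not called. In 2-cell embryos, with single libraries left out, log2 fold changes ran from -0.1587 to 0.07088 for Obox2, -0.06498 to 0.2225 for Obox3, -0.4592 to 0.0727 for Obox5, -0.07726 to 0.06131 for Obox6, -0.1829 to 0.05011 for Cphx1 and -0.3337 to 0.1215 for Cphx2. With the replicate range as a covariate Obox3 had -0.01529 and Obox6 -0.02702, and Obox6 had -0.05999 with FPKM as deposited. Cphx3 had 0.008296 in morulae with the replicate block. The cause was not tested.

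Members whose KD effect differed in blastocysts from that in morulae numbered 3 to 4 with single libraries left out, 3 with no filter and 5 with the block, where Crxos also passed, at -1.198. Replicates of 1 number were not treated as pairs, and their r across genes was -0.11 to 0.353 over the 3 stages. Each r is of deviations from group means, which sum to 0 within a group. Values on both sides of 0 were therefore partly fixed in advance. In 2-cell embryos KD replicate 1 had r of 0.208 and 0.205 with control replicates 1 and 2, and -0.237 and -0.192 with 4 and 5. KD replicate 4 had -0.168 and -0.196 with control replicates 1 and 2, and 0.214 and 0.163 with 4 and 5. For KD replicate 2 the values ran from -0.0211 to 0.0147. In morulae r was above 0 within the low numbers (0.0943 to 0.181) and within the high ones (0.185 and 0.346) and below 0 between them (-0.278 to -0.0944), the same division as for Cphx2 and Obox8 in KD morulae. With the range as a covariate both genes were still called in morulae. The block could not be fitted for the control stage contrasts. FPKM as deposited moved the median log2 fold change of all genes from 0.0153 to -0.0852 in morulae and from -0.0154 to 0.0922 from control 2-cell embryos to morulae. The depth in reads is unknown, so its limit cannot be given.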
